A study of Mus musculus with 2 samples.

Results

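Pax6-high corneal epithelial cells were taken from single-cell RNA counts of the mouse cornea and limbal rim by a rule on unique molecular identifiers (UMIs), the tags that count captured RNA molecules. A cell entered when its Pax6 level was at least 250 CPM (CPM, the UMIs of the gene per 1000000 UMIs of the cell) and that of Krt12, the corneal keratin, at least 8000 CPM. Gpha2, a limbal gene, had to stay under 500 CPM, Lce3a, a gene of superficial cells, under 1000 CPM and Dcn, a stromal proteoglycan gene, under 2000 CPM. Cells were thus chosen by measured levels of these 5 genes. In all 714 of 7668 cell barcodes met the rule. These were 394 of 5155 barcodes in the Becn1 heterozygote library and 320 of 2513 in the wild-type library. Their nearest neighbours, here called Pax6-low corneal cells, met the same 4 other limits with Pax6 under 250 CPM and numbered 2350 in the heterozygote and 1136 in the wild-type library.

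The heterozygote library (genotype Beclin1 +/-) and the wild-type library (WT) each came from 1 female mouse aged 28 days on the C57BL/6 background, and the mice were littermates. Becn1 encodes beclin 1, part of a lipid kinase complex that starts autophagosome formation. Neither the extent of the deletion in Becn1 nor any limit of it to certain tissues is given, and no treatment is named. Lens, retina, iris and most conjunctiva were dissected away before enzymatic digestion to single cells and 10x Genomics droplet sequencing. With 1 library per genotype no difference has a replicate check, no test was made, and an effect of genotype cannot be told apart from one of the mouse or of its library. All intervals are 95% intervals and cover counting error only.

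Pax6 is a paired-box and homeobox transcription factor that directs eye development and is kept on in the corneal epithelium throughout life. In that tissue it works with other factors to keep corneal identity, including the keratin Krt12 and the aldehyde dehydrogenase Aldh3a1, and its dosage is known to matter, since loss of a single copy damages the corneal surface in mouse and human. The corneal epithelium renews from the limbus and from dividing basal cells on the basement membrane, which give rise to wing and superficial cells.

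The cell type was checked against marker genes, with the 5 genes of the rule left out of the sums. The other 7 corneal epithelial markers reached 20 CPM in Pax6-high cells of both libraries, and their summed level was 40302 CPM in Pax6-high cells against 31335 CPM in Pax6-low cells of the heterozygote library, and 39443 against 33617 CPM in the wild type. Pax6 is also a gene of the retina, iris and lens, but of 8 retina, iris and ciliary markers 6 were at 0 in heterozygote and 8 in wild-type Pax6-high cells, and the 5 lens markers summed to 5.24 and 5.39 CPM. The other 7 limbal basal markers, which include Krt14 and Socs3, summed to 4629 CPM in Pax6-high against 5646 CPM in Pax6-low heterozygote cells, and to 4241 against 5254 CPM in wild-type cells. Single limbal markers went both ways. Log2 ratios of Pax6-high over Pax6-low cells were positive for Socs3 (2.38 and 2.38), Lrig1 (1.99 and 2.09), Atf3 (0.32 and 0.29) and Cd63 (0.08 and 0.02). They were negative for Krt14 (-0.34 and -0.95) and Ifitm3 (-0.18 and -0.11), and Krt15 differed in sign (-0.59 and 0.23). The other 6 keratocyte markers summed to 399 CPM in Pax6-high and 190.0 CPM in Pax6-low heterozygote cells, and to 424 and 292 CPM in wild-type cells, against 41243 and 49228 CPM in stromal cells (Dcn at 2000 CPM or more) of the same libraries. None of the 6 was at 0, and the part of stromal RNA in the results below was not tested as a whole. The other 6 superficial epithelial markers summed to 2348 CPM in Pax6-high against 5991 CPM in Pax6-low heterozygote cells, and to 2423 against 5553 CPM in wild-type cells. Pax6-low cells as a group thus held more RNA of superficial markers. In Pax6-high cells the immune, vascular, melanocyte and goblet cell lists summed to less than 6 CPM each. Conjunctival markers summed to 6186 CPM in Pax6-high against 6128 CPM in Pax6-low heterozygote cells, and to 5825 against 5220 CPM in wild-type cells. Aqp5 alone held 5689 and 5189 CPM of the Pax6-high sums. Corneal endothelial markers summed to 269 against 179 CPM and to 299 against 216 CPM. In Pax6-high cells mast cell markers summed to 29.5 and 38.3 CPM, and Schwann or neural markers to 40.2 and 41.6 CPM.

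Depth differed between the libraries. Pax6-high cells had a median of 13917 UMIs in the heterozygote and 22667 UMIs in the wild-type library, beside medians of 13757 and 19506 UMIs in Pax6-low cells. Their pooled counts came to 7633943 and 10011851 UMIs. At an equal depth of 5000 UMIs per cell, Pax6-high cells had more detected genes, with medians of 1702 against 1502 genes in the heterozygote and 1726 against 1514 genes in the wild-type library. Ribosomal protein genes took a median of 22.6% of UMIs in Pax6-high against 26.4% in Pax6-low heterozygote cells, and 23.7% against 26.7% in wild-type cells. The median mitochondrial share was 1.75% against 1.59% and 1.95% against 1.60%. The libraries had 15 barcodes in common, of which 4 were Pax6-high in at least 1 library.

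Pax6-high cells made up 7.64% of heterozygote barcodes (6.93% to 8.40%) and 12.7% of wild-type barcodes (11.5% to 14.1%). Among corneal cells that met the other limits the shares were 14.4% and 21.98%. When every cell was thinned to 5000 UMIs and the rule applied again, the shares were 6.69% and 11.5% of barcodes, and the heterozygote share was the lower one at equal depth too. The lowest barcode had 5430 UMIs in the heterozygote and 8089 UMIs in the wild-type library, and the part of this difference in the shares was not tested. Only 276 of the 394 heterozygote and 232 of the 320 wild-type cells also met the rule after thinning.

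The values that chose the cells are given as a description. Pax6 (ENSMUSG00000027168, chromosome 2, 105668900 to 105697364 on mm10, plus strand) was counted at 492 CPM in Pax6-high against 60.8 CPM in Pax6-low heterozygote cells, and at 582 against 76.6 CPM in wild-type cells. Per cell its median was 425 CPM from 7 UMIs in the heterozygote and 532 CPM from 12 UMIs in the wild-type library. Membership therefore rested on few molecules, and 81 heterozygote and 17 wild-type cells were included on 3 or fewer Pax6 UMIs. Just inside the limit, from 250 to 300 CPM, lay 78 heterozygote and 43 wild-type cells, and just outside, from 200 to 250 CPM, lay 111 and 69. Stromal cells, which should lack the gene, held 23.8 and 18.8 CPM, and 8.49% and 8.05% of them had a Pax6 UMI at their lower median depths of 8396 and 11934 UMIs. The overlapping Pax6os1 gene lies on the other strand, and whether the counting used strand is not given in the sources used here, so a part of these reads may belong to it. Krt12, also part of the rule, had 31479 CPM in Pax6-high against 24499 CPM in Pax6-low heterozygote cells and 29012 against 24610 CPM in wild-type cells.

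Many transcripts differed between Pax6-high and Pax6-low cells in the same direction in both libraries. Among 4461 genes tested, whose mean over the 4 pooled sums reached 20 CPM, 818 (18.3%) were at least 1.5-fold higher and 362 (8.11%) at least 1.5-fold lower in Pax6-high cells of both libraries. A gene past this fold in both libraries is called higher or lower from here on. The median log2 ratio over all tested genes was 0.26 in the heterozygote and 0.25 in the wild-type library, so ratios are best read against that shift. TMM scaling uses a weighted trimmed mean of the ratios of all genes with counts in both pooled sums, also those under the 20 CPM mean. With it every ratio was lower by 0.51 and 0.52, the medians became -0.24 and -0.26, and 152 genes were higher and 928 lower. The tested genes were thus not level under either scaling. Genes called higher were thus 69.3% of all called genes with scaling by total UMIs and 14.1% with TMM.

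The genes furthest above the Pax6-low level were Ppp1r3c, Gas1, Zfp296, Lars2, Cdca7 and Txnip. Ppp1r3c, which directs protein phosphatase 1 to glycogen (chromosome 19, 36731731 to 36736653), had 72.3 CPM in Pax6-high against 4.71 CPM in Pax6-low heterozygote cells and 62.5 against 3.60 CPM in wild-type cells, log2 ratios of 3.94 (3.69 to 4.19) and 4.11 (3.81 to 4.44). Gas1, a membrane protein named for growth arrest and a hedgehog co-receptor (chromosome 13, 60174405 to 60177365), had 126 against 9.32 CPM in heterozygote and 171 against 9.73 CPM in wild-type cells. Few Pax6-low cells held a UMI of Gas1. A Gas1 UMI was found in 62.4% of Pax6-high against 8.98% of Pax6-low heterozygote cells, and in 78.4% against 13.6% of wild-type cells. After thinning to 5000 UMIs the Gas1 shares were 39.9% against 4.43% and 50.0% against 4.14%, beside 26.2% and 32.7% of stromal cells. Stromal cells also read Gas1, at 80.2 and 101.6 CPM, and the part of stromal RNA in the Gas1 level was not tested.

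Txnip, which binds thioredoxin and restrains glucose uptake (chromosome 3, 96557957 to 96561883), was counted at 211 CPM in Pax6-high against 22.3 CPM in Pax6-low heterozygote cells and at 223 against 18.02 CPM in wild-type cells. Its log2 ratios were 3.24 (3.12 to 3.36) and 3.63 (3.49 to 3.77). Among single Pax6-high cells the median was 125 CPM in the heterozygote and 187 CPM in the wild-type library, while the median Pax6-low cell had no Txnip UMI in either. At 5000 UMIs a Txnip UMI was present in 47.7% of Pax6-high against 8.43% of Pax6-low heterozygote cells, and in 56.9% against 7.04% of wild-type cells. Stromal cells gave 16.7% and 19.5% by the same count, at 66.5 and 74.8 CPM. Gm15441 overlaps Txnip on the other strand, with the same limit as for Pax6. Txnip belongs to the alpha-arrestins, and its relatives did not share its ratio, since Arrdc1 was called higher (0.59 and 0.77), Arrdc4 lower (-0.71 and -0.66) and Arrdc3 neither (-0.54 and -0.51). The glucose transporter Slc2a1 (-0.76 and -1.20) and thioredoxin reductase Txnrd1 (-1.38 and -1.33) were called lower. Of the 8 measured genes of the arrestin and thioredoxin list 2 were higher and 3 lower, with medians of -0.23 and -0.27.

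Other leading genes included Lars2, the mitochondrial leucyl-tRNA synthetase, with 101.3 against 7.76 CPM in heterozygote and 147 against 8.47 CPM in wild-type cells. Cdca7, a chromatin-associated gene of the cell cycle, had 39.3 against 3.18 and 43.1 against 2.60 CPM. The zinc finger gene Zfp296 had 51.7 against 3.92 and 50.6 against 3.57 CPM, and the DM domain transcription factor Dmrta2 153 against 24.4 and 190.4 against 29.0 CPM. The rule also named the long noncoding RNA 4631405K08Rik (log2 ratios 3.26 and 3.06), C2cd4b (2.90 and 2.66), the antisense RNA B930036N10Rik (2.21 and 2.26), the glycosyltransferase B3gnt8 (2.18 and 2.50), Mylip, a ubiquitin ligase of the LDL receptor (2.13 and 2.45), and Ckap2l, a spindle gene (2.34 and 2.09). Zfp296, C2cd4b, B930036N10Rik, B3gnt8 and Ckap2l overlap genes on the other strand, so their reads cannot be assigned with certainty.

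Stress-responsive and immediate early genes formed the rest of the leading group. Fos, a subunit of the AP-1 transcription factor (chromosome 12, 85473890 to 85477273), had 1758 against 332 CPM in heterozygote and 1886 against 465 CPM in wild-type cells, log2 ratios of 2.41 (2.37 to 2.44) and 2.02 (1.99 to 2.05). Socs3, a feedback inhibitor of JAK and STAT signalling (chromosome 11, 117966079 to 117970047), had 323 against 62.0 and 334 against 64.1 CPM, a ratio of 2.38 in both libraries. Fos was found in nearly every Pax6-high cell, and Socs3 in about 3 of 4. A Socs3 UMI was present in 74.6% of Pax6-high against 29.6% of Pax6-low heterozygote cells and in 77.8% against 41.5% of wild-type cells. The growth arrest and stress genes Gadd45b and Gadd45g followed, with Gadd45b at 355 against 59.6 and 261 against 39.2 CPM and Gadd45g at 234 against 36.4 and 163 against 25.4 CPM. The nuclear receptor Nr4a1 had 56.5 against 13.9 and 84.5 against 19.8 CPM. Stromal cells also read these genes and held 2140 and 2852 CPM of Fos and 349 and 511 CPM of Gadd45g.

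Promoter sequences are shown for Pax6, which defines the cells, and as examples for 3 of the leading genes. These 3 were higher in Pax6-high than in Pax6-low cells of both libraries. Over Pax6 bands and clusters, described below, Ppp1r3c took another course than Socs3 and Fos. The windows run from 250 bases before to 50 bases after the annotated start, read 5′ to 3′ on the gene's strand (RefSeq, GRCm38.p6), and 17 of 19 genes looked up had an entry. Capitals mark the cAMP response element TGACGTCA in Pax6, the E-box CACGTG in Ppp1r3c, the STAT palindrome TTCNNNGAA in Socs3 and the TATA box TATAAA in Fos.
Pax6 (chr2:105668646-105668945, plus strand): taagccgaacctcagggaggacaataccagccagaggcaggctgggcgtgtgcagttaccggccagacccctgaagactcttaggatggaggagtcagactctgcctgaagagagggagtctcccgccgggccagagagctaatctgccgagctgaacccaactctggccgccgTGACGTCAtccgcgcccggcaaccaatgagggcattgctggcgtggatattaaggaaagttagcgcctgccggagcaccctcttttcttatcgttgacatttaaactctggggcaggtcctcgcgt
Ppp1r3c (chr19:36736555-36736854, minus strand): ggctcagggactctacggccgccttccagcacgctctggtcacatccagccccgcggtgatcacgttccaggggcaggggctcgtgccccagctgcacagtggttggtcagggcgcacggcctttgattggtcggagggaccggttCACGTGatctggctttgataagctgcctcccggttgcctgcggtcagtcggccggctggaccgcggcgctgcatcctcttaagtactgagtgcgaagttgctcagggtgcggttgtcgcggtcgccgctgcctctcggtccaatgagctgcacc
Socs3 (chr11:117969317-117969616, minus strand): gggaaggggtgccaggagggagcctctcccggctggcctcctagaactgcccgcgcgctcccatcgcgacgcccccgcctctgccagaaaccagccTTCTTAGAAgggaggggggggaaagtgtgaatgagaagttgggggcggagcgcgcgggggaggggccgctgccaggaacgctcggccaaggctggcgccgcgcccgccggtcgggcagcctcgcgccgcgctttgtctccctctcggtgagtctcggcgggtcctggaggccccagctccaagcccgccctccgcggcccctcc
Fos (chr12:85473640-85473939, plus strand): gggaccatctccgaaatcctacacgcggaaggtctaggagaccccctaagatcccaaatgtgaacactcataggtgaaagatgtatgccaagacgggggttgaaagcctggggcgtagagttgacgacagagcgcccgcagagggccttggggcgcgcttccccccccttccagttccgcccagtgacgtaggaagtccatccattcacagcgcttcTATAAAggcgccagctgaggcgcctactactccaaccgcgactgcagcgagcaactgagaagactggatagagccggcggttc
Positions are counted back from the RefSeq start. The windows of Socs3, B3gnt8 and Nr4a1 lie inside the gene spans of the annotation used for gene positions. The Socs3 palindrome thus lies within the span given for that gene above. The element in Pax6 begins at -76, the E-box at -104, the STAT palindrome at -154 and the TATA box at -33. On either strand, 1.79% of 32851 promoter windows hold the cAMP response element, 7.15% the E-box, 8.30% the STAT palindrome and 13.6% the TATA box, so each motif is also found in many other genes. Also searched were the AP-1 site TGANTCA (7.81% of windows) and the CArG box (1.63%), and neither was in these 4 windows. Of the other leading genes, Zfp296, Gadd45b and Gadd45g held the E-box, Cdca7 and Ckap2l the STAT palindrome, Ckap2l the CArG box and Gadd45b, Gadd45g and Mylip the TATA box, while Gas1, Txnip, Lars2, C2cd4b, Dmrta2, B3gnt8 and Nr4a1 held none of these letters. The second annotated Pax6 start, at the window 105682213 to 105682512, held none of the 6 motifs. A match describes letters in a window and says nothing of a bound factor.

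Genes furthest below the Pax6-low level included secreted proteases, a peptide hormone and a stress gene. Mmp13, Mmp10 and Nppb are among the genes that mark cluster 2 of the clusters described below. That cluster held 16.9% of Pax6-low but 0.51% of Pax6-high heterozygote cells, and 19.1% but 0.31% of wild-type cells. With Pax6-low cells weighted to clusters, as described below, the weaker ratio of both libraries was -1.01 for Mmp13, -0.74 for Mmp10 and 0.12 for Nppb. Mmp13, a collagenase, had 11.9 CPM in Pax6-high against 145 CPM in Pax6-low heterozygote cells and 6.79 against 125 CPM in wild-type cells, log2 ratios of -3.60 (-3.92 to -3.30) and -4.19 (-4.57 to -3.86). Mmp10, a stromelysin, had 31.4 against 261 and 20.8 against 316 CPM. A Mmp10 UMI was found in 14.2% of Pax6-high against 53.2% of Pax6-low heterozygote cells and in 20.3% against 64.2% of wild-type cells, while 9.69% and 9.52% of stromal cells had one. Most Pax6-high cells therefore had no Mmp10 UMI, and the remaining share was nearer to that in stromal than in Pax6-low cells. The natriuretic peptide gene Nppb (-3.28 and -3.11), the heparan sulfate sulfotransferase Hs3st1 (-2.87 and -2.90), AA467197 (-3.12 and -2.74) and Chac1, which degrades glutathione and is a target of ATF4 (-2.69 and -3.17), came next. Also among the lowest were the protease inhibitor Slpi (-3.20 and -2.64), the calcium-binding protein S100a7a (-2.72 and -2.61), the MAP kinase phosphatase Dusp10 (-2.68 and -2.60), Ccdc71l (-2.89 and -2.59) and Nipal1 (-2.55 and -2.65).

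**Figure D1:**
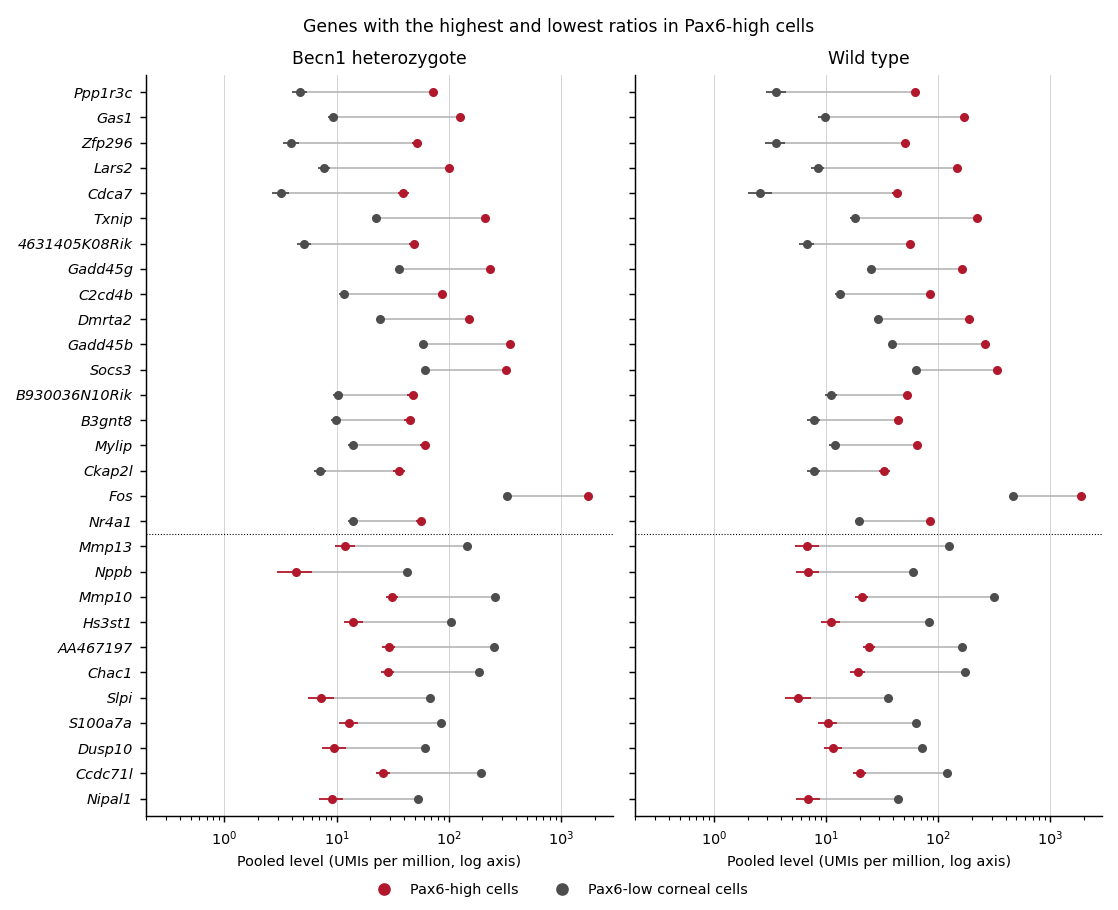
Pooled levels (CPM, log axis) of the 18 highest genes above the dotted line and 11 of the 12 lowest below it, in Pax6-high (red) and Pax6-low corneal cells (grey) of the heterozygote (left) and wild-type (right) library, with exact Poisson 95% intervals. Ppp1r3c stands at 72.3 against 4.71 CPM and Mmp13 at 11.9 against 145 CPM in the heterozygote library, and the wild-type panel shows the same directions.

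Levels were next read over the whole range of Pax6, in 5 bands of cells that met the other 4 limits. The bands held 1176, 615, 559, 241 and 153 heterozygote cells and 407, 374, 355, 147 and 173 wild-type cells for Pax6 at 0, above 0 to 100, 100 to 250, 250 to 500 and at least 500 CPM. Txnip was counted at 13.4, 16.2, 44.7, 138 and 325 CPM in the heterozygote and at 12.6, 13.3, 27.1, 130.2 and 299.6 CPM in the wild-type library. Gas1 had 3.08, 7.96, 21.3, 77.2 and 203 CPM, and 4.41, 5.83, 17.9, 87.4 and 241 CPM. Both genes were thus highest in the band of highest Pax6, as were Ppp1r3c, Lars2, Cdca7, Mylip, Dmrta2 and 4631405K08Rik in both libraries.

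Immediate early and feedback genes followed another course. Socs3 had 25.9, 47.6, 140, 321 and 327.5 CPM over the bands of the heterozygote and 31.8, 45.1, 109, 351 and 320 CPM over those of the wild-type library. Fos had 173, 259, 684, 1760 and 1755 CPM, and 309, 364, 692, 2041 and 1758 CPM. In the heterozygote library the last 2 bands lay within their intervals for both genes, and in the wild type Fos was lower in the top band. Jun, the AP-1 partner of Fos, was lower in the top band (1308 then 875 CPM in the heterozygote, 1359 then 882 CPM in the wild type), and so was Nr4a1 (64.1 then 44.6 CPM, and 112 then 61.7 CPM).

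Structural and identity genes also varied with Pax6. Aldh3a1, the main corneal crystallin, had 21110 and 18101 CPM in the top band against 9876 and 9785 CPM in the band from 100 to 250 CPM. Over all Pax6-low cells Aldh3a1 had 9629 and 11011 CPM. Krt5, the basal keratin, increased in every step, to 7048 CPM in the heterozygote and 7826 CPM in the wild-type top band. Its partner Krt14 was highest where Pax6 was 0, at 3393 and 4490 CPM, and stood at 2238 and 1545 CPM in the top band. Krt13, a keratin of conjunctival and upper epithelial layers, had 85.5 and 184 CPM in the top band but 561 and 596 CPM at 100 to 250 CPM. Its level over all Pax6-low cells was 465 and 477 CPM. Mmp10 was counted at 354 and 471 CPM where Pax6 was 0 and at 18.8 and 5.11 CPM in the top band, and the EGF receptor ligand Areg at 176 and 228 CPM where Pax6 was 0 and at 15.1 and 11.3 CPM in the top band.

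**Figure D2:**
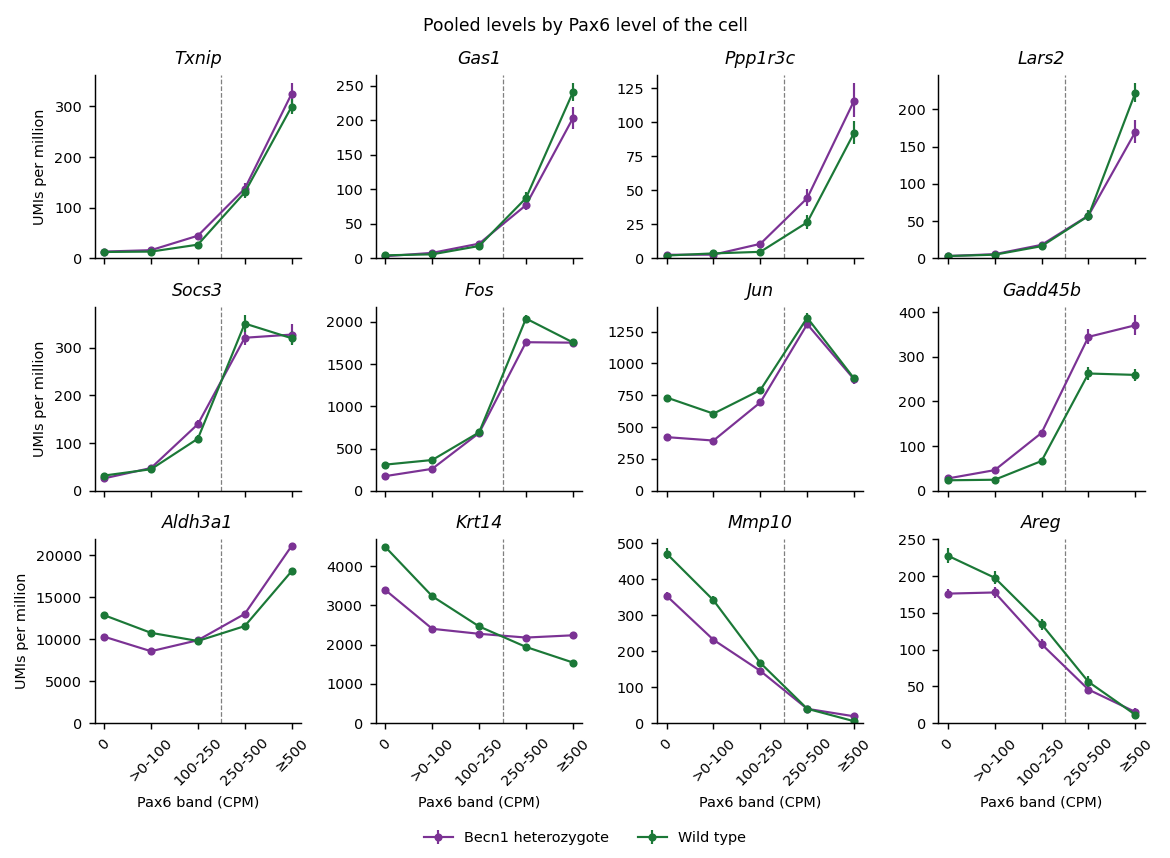
Pooled levels (CPM, linear axes from 0) of 12 genes in 5 bands of the cell's Pax6 level, for the heterozygote (purple) and wild-type (green) library, with exact Poisson 95% intervals. The dashed line marks the 250 CPM limit. Txnip, Gas1, Ppp1r3c and Lars2 climb to the last band, Socs3 stands at 320 to 351 CPM and Fos at 1755 to 2041 CPM in the last 2 bands of both libraries, and Mmp10 and Areg decline.

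Groups of related genes were then described by list, each with the number of listed genes that reached a mean of 20 CPM, called measured. These lists were drawn up with earlier results of the same data known, so their direction is not independent evidence, and the counts stand beside 18.3% higher and 8.11% lower among all tested genes. Of 31 measured immediate early genes 12 were higher and 7 lower, with medians of 0.37 and 0.45 that became -0.14 and -0.07 under TMM. The higher ones included Egr1 (1.90 and 1.65), Klf10 (1.85 and 1.45), Zfp36, which destabilizes messenger RNA (1.29 and 1.23), and Jun (1.24 and 0.63). The lower ones included the AP-1 subunit Fosl1 (-1.97 and -2.21), the phosphatase Dusp5 (-1.94 and -1.95), Klf6 (-1.004 and -1.30) and Cyr61, a matricellular protein (-0.82 and -1.54). The immediate early class as a whole was thus split, with Fos among the higher and Fosl1 among the lower genes.

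Of 15 measured cytokine feedback genes 4 were higher and 3 lower, with medians of 0.02 and -0.13. Besides Socs3 its relatives Cish (1.01 and 0.70) and Socs7 (0.86 and 0.98) and the kinase Pim3 (1.03 and 0.72) were higher. Stat3 itself had ratios of 0.02 and -0.13 and the receptor chain Il6st -0.44 and -0.33, under the fold in both libraries. The transcription factor Cebpb (-0.87 and -1.29) and the NF-kappa-B regulators Bcl3 (-0.92 and -0.96) and Tnfaip3 (-0.75 and -1.15) were lower.

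Corneal and eye transcription factors were split as well, with 6 of 19 measured higher and 4 lower, and medians of 0.44 and 0.37 (TMM -0.07 and -0.15). Higher factors were Dmrta2 (2.65 and 2.72), Foxc1, a forkhead factor of the anterior segment (1.78 and 2.14), the homeobox factor Meis2 (1.43 and 1.49), Nfib (1.25 and 1.51), Tfap2a (0.85 and 0.82) and Nfia (0.82 and 0.83). The lower factors included Klf6, Klf5 (-0.99 and -1.07) and Elf3 (-0.65 and -0.75), which are known for epithelial differentiation and barrier formation. Below the 20 CPM mean, Otx1 had 30.9 against 8.77 CPM in heterozygote and 33.1 against 6.84 CPM in wild-type cells, and Meis1 21.6 against 5.03 and 21.5 against 4.53 CPM. Trp63, the factor of basal epithelial cells, had 69.6 against 47.6 and 73.5 against 52.5 CPM, under the fold.

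Notch, Wnt and BMP genes came next. Of 7 measured Notch genes 3 were higher and 0 lower (medians 0.77 and 0.70, TMM 0.26 and 0.18), namely the receptor Notch1 (1.44 and 1.68), the ligand Jag1 (1.01 and 0.83) and the feedback gene Nrarp (0.77 and 0.81), while the target Hes1 had 0.38 and 0.10. Of 7 Wnt genes 3 were higher and 0 lower (medians 0.78 and 0.57, TMM 0.27 and 0.06), the receptor Fzd6 (1.56 and 1.42), the secreted inhibitor Sfrp1 (1.06 and 0.87) and the ligand Wnt4 (0.63 and 0.72). Of 9 BMP and TGF-beta genes 4 were higher and 2 lower (medians 0.53 and 0.52, TMM 0.02 and 0.00), and the BMP targets Id1 (1.79 and 1.76), Id2 (1.73 and 1.70) and Id3 (1.43 and 1.18) led them.

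In the EGF receptor list the called ligands were lower. Of its 9 measured genes 2 were higher and 5 lower, with medians of -0.89 and -1.10. The receptor Erbb2 (1.14 and 1.04) and Lrig1, a negative regulator of EGF receptors (1.99 and 2.09), were higher, though Lrig1 overlaps Slc25a26. The ligands Areg (-2.24 and -2.54), Epgn (-2.02 and -2.16), Tgfa (-1.47 and -1.29) and Hbegf (-0.89 and -1.10) and the feedback inhibitor Errfi1 (-1.18 and -1.59) were lower. Egfr was read at 57.5 against 58.1 CPM in heterozygote and 59.8 against 50.4 CPM in wild-type cells, within 1.5-fold in both libraries.

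Adhesion genes were found on both sides. Of 12 measured genes 5 were higher and 3 lower (medians 0.48 and 0.41, TMM -0.02 and -0.11). Higher were the hemidesmosome genes Dst (1.09 and 0.84), Itgb4 (1.01 and 0.90), Cd151 (0.85 and 0.76) and Col17a1 (0.66 and 0.60), and the anchoring fibril collagen Col7a1 (0.70 and 0.76). The lower ones included the laminin chains Lama3 (-1.44 and -1.79) and Lamb3 (-0.97 and -1.62).

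In keratin, alarm and stress lists more genes were lower than higher. None of 13 measured keratins was called higher and 6 were lower (medians -0.85 and -0.71), among them the stress keratins Krt16 (-0.85 and -1.28), Krt6a (-0.87 and -0.71) and Krt6b (-1.07 and -0.77). Of 9 measured epithelial alarm genes 8 were lower and 0 higher (medians -1.07 and -1.005), including the neutrophil chemokine genes Cxcl2 (-2.75 and -2.35) and Cxcl1 (-1.12 and -1.34) and the alarm protein S100a9 (-2.37 and -1.005). Krt6a, Krt6b and Krt16 stand in both lists. Of 13 ATF4 and unfolded protein genes 7 were lower and 0 higher (medians -0.68 and -0.70), with Asns (-1.72 and -2.31), Sesn2 (-1.27 and -1.46) and Herpud1 (-1.11 and -1.39) beside Chac1, whereas the chaperone Hspa5 had 0.14 and 0.07. Of 8 matrix protease genes 4 were lower and 1, Adam17 (0.77 and 0.95), was higher.

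Regulators of splicing and chromatin, the cell cycle and housekeeping groups completed the lists. Of 19 splicing regulators 8 were higher and 0 lower (medians 0.62 and 0.52, TMM 0.11 and 0.00), for example Luc7l3 (1.00 and 0.96) and Clk4 (0.91 and 1.03). Of 14 chromatin regulators 5 were higher, led by Brd2 (1.46 and 1.36) and Arid1a (1.25 and 1.13), with medians of 0.56 and 0.40 (TMM 0.06 and -0.12). The nuclear RNAs did not follow, since Malat1 had ratios of -0.39 and -0.35 and Neat1 was lower (-0.65 and -0.63). Cell cycle genes were higher in 9 of 15 measured G2 and M genes (medians 1.04 and 0.85) and 3 of 5 S phase genes (0.98 and 0.70), with 0 lower in either, Ccnb1 (2.03 and 1.60) and Cenpf (1.75 and 1.799) leading. Among p53 targets and cell cycle inhibitors Cdkn1b was higher (1.24 and 1.74) and Cdkn1a lower (-1.15 and -1.38). The heat shock genes Hspa1a (1.58 and 1.70) and Hspa1b (1.71 and 1.33) were higher, among 14 measured chaperones with 2 higher and 2 lower. None of 84 ribosomal protein genes was past the fold (medians -0.05 and -0.03), and of 20 cholesterol synthesis genes 1 was higher and 1 lower. Crystallins (1 of 14 higher, 2 lower), wing cell genes (0 of 13 higher, 5 lower), glycolysis and hypoxia genes (1 of 15 higher, 4 lower), clock genes (1 of 7 higher, 1 lower), interferon genes (1 of 5 higher, 0 lower), mitochondrially encoded genes (1 of 11 higher, 0 lower) and autophagy genes (1 of 15 higher, 2 lower) complete the lists.

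**Figure D3:**
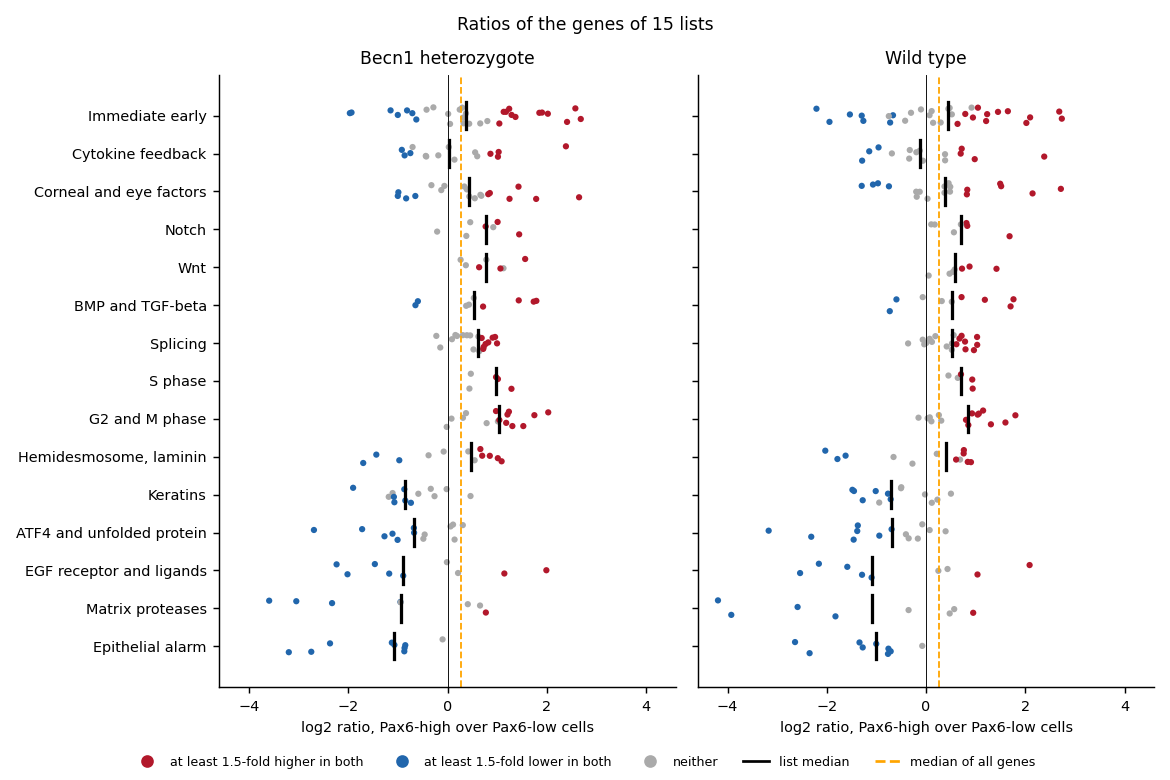
Log2 ratios of Pax6-high over Pax6-low cells for the measured genes of 15 lists in the heterozygote (left) and wild-type (right) library, each point a gene, with the list median as a black bar. Red and blue points are at least 1.5-fold higher or lower in both libraries, and the dashed line is the median of all tested genes (0.26 and 0.25). The alarm list lies below 0 in every measured gene, while the immediate early list spans both sides.

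Clusters built without the 5 genes of the rule showed where these cells lie. Among 24 clusters of all barcodes, clusters 7, 15, 16 and 17 held 296 of 394 Pax6-high heterozygote cells (75.1%, 70.6% to 79.3%) and 280 of 320 wild-type cells (87.5%, 83.4% to 90.9%). The same clusters held 9.23% and 10.6% of Pax6-low cells. Genes that vary with Pax6 shaped the clusters, so this placement is a description. Cluster 15 had the purest makeup, with 100 Pax6-high and 12 Pax6-low heterozygote cells and 81 and 2 wild-type cells. Clusters 7 (87 and 91 Pax6-high cells), 16 (63 and 69) and 17 (46 and 39) were mixed with Pax6-low cells.

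**Figure D4:**
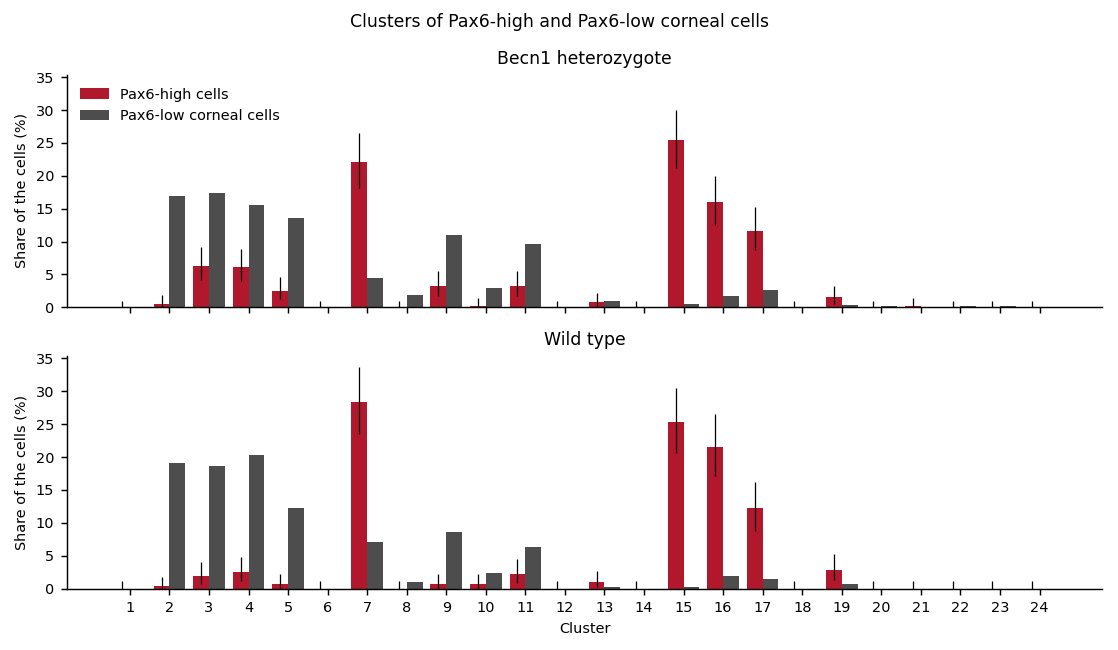
Share of Pax6-high (red) and Pax6-low corneal cells (grey) in each of 24 clusters, in percent of the cells of that kind, for the heterozygote (upper) and wild-type (lower) library. Lines on the red bars are exact binomial 95% intervals, which at a share of 0 show its upper limit. Clusters 7, 15, 16 and 17 hold 75.1% and 87.5% of the Pax6-high cells.

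The 4 clusters differed in which of the leading genes they carried. The clusters were built from variable genes of these same cells, so differences in such genes between clusters are partly built in. The levels and gene counts by cluster are therefore a description and no independent evidence. Cluster 15 had the highest Pax6, with 658 and 782 CPM in its Pax6-high cells, and also the highest Ppp1r3c (153 and 122 CPM), Lars2 (193 and 290 CPM) and Aldh3a1 (22390 and 21090 CPM). Its Fos (1175 and 881 CPM), Jun (477 and 413 CPM) and Socs3 (170 and 150.5 CPM) were the lowest of the 4 clusters. Against the Pax6-high cells of the other 3 clusters, 20 of 32 immediate early genes and 8 of 15 cytokine feedback genes were at least 1.5-fold lower in both libraries and 0 of either were higher, beside 305 lower and 70 higher of 4802 genes in all. Gm42418, an RNA whose reads are known to overlap ribosomal RNA, was higher there too (1208 against 490 CPM and 846 against 476 CPM), and its part in the Lars2 level was not tested.

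Cluster 7 was the opposite case. Its Pax6-high cells had 549 and 630.5 CPM of Socs3, 2808 and 3423 CPM of Fos and 2421 and 1925 CPM of Jun, the highest of the 4 clusters, but 18.4 and 21.0 CPM of Ppp1r3c. Compared with the other 3 clusters, 16 of 32 immediate early genes and 8 of 15 cytokine feedback genes were higher and 0 lower. Among all 4802 genes 167 were higher and 264 lower. Socs3, Fos and Jun are among the genes that mark this cluster, so the list counts only describe how it was formed. The highest ratios were those of Fosl1 (144 against 35.003 CPM and 141 against 30.7 CPM), Pmepa1, a TGF-beta target (25.03 against 8.09 and 37.0 against 10.03 CPM), and the phosphodiesterase Pde4b (58.2 against 20.3 and 35.9 against 11.8 CPM). Cluster 7 thus combined the highest Socs3 and Fos with Txnip (150.2 and 177.6 CPM) below that of cluster 15 (337.8 and 331 CPM).

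Cluster 16 held dividing cells, and cluster 17 held cells with genes of upper layers. The gene counts for both are likewise a description, since variable genes of these cells formed the clusters. In cluster 16 all 17 measured G2 and M genes were higher than in the other 3 clusters. Among all 4802 genes 232 were higher and 141 lower there. Ccnb1 had 186 and 102 CPM, but Txnip (334.5 and 308.5 CPM) and Gas1 (203 and 260 CPM) were close to those of cluster 15. Socs3 was high in cluster 16 as well (422 and 312 CPM). In cluster 17 the protease gene Asprv1 had 3058 against 217 CPM in heterozygote and 4857 against 244 CPM in wild-type cells, and Krt78 44.7 against 2.94 and 59.7 against 4.22 CPM. There 9 of 11 keratins, 9 of 12 wing cell genes and 8 of 20 cholesterol synthesis genes were higher, and 9 of 12 hemidesmosome and basement membrane genes were lower, beside 367 higher and 903 lower among all 4802 genes. Pax6 in that cluster was 414 and 453 CPM, and Txnip 125.5 and 104.7 CPM.

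**Figure D5:**
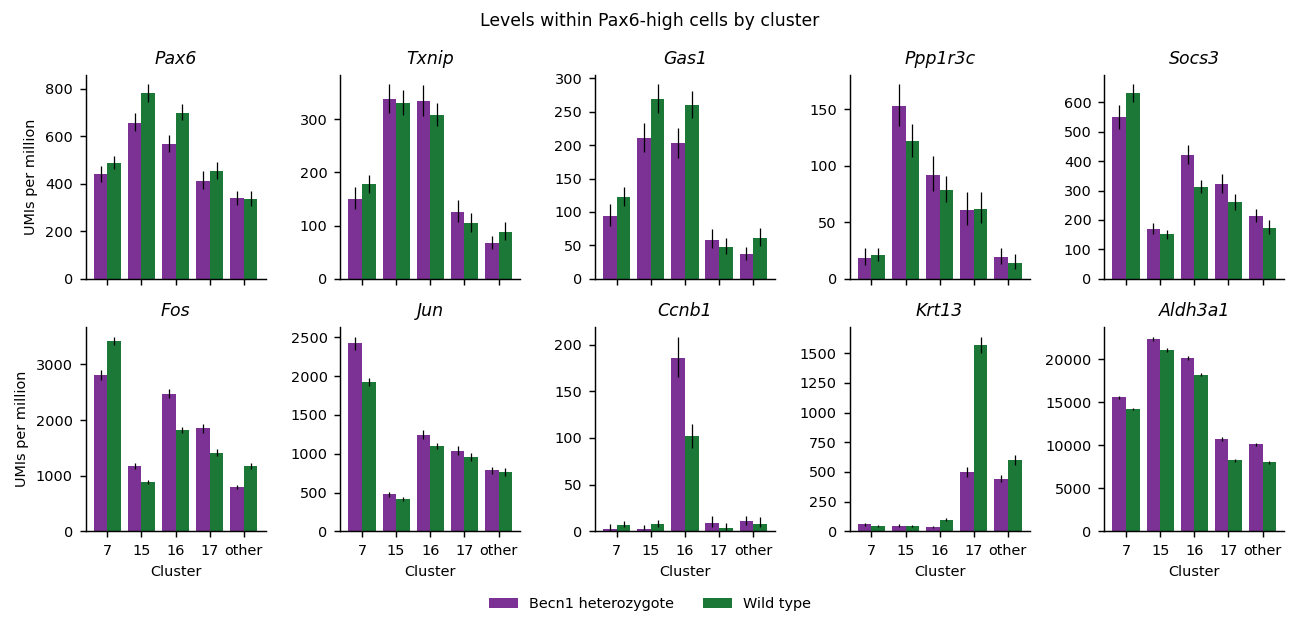
Pooled levels (CPM, bars from 0) of 10 genes in the Pax6-high cells of clusters 7, 15, 16, 17 and all other clusters, for the heterozygote (purple) and wild-type (green) library, with exact Poisson 95% intervals. Txnip and Gas1 are highest in clusters 15 and 16, Socs3, Fos and Jun in cluster 7, Ccnb1 in cluster 16 and Krt13 in cluster 17.

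The contrast with Pax6-low cells was smaller once cells of the same cluster were compared. Pax6-low cells were weighted to the clusters of the Pax6-high cells, leaving out clusters with under 10 Pax6-low cells, which kept 387 of 394 heterozygote and 227 of 320 wild-type Pax6-high cells. The 81 wild-type cells of cluster 15 were among those left out, and in the heterozygote library its 100 Pax6-high cells were set against 12 Pax6-low cells. By this count 91 genes were higher and 51 lower. Ppp1r3c (1.16, the smaller ratio of both libraries), Gadd45b (0.94), Gas1 (0.86) and Dmrta2 (0.79) stayed past the fold, while Txnip (0.57), Fos (0.52) and Socs3 (0.46) did not. With cluster 15 left out of both libraries, Txnip (1.55) was past the fold, while Fos (0.52) and Socs3 (0.58) were still under it, with 107 genes higher and 67 lower. In the weighting with cluster 15, B3gnt8 (-0.02) and Nppb (0.12) turned, and the G2 and M list had medians of -0.33 and -0.36. Within cluster 16, where both kinds of cell are dividing, Txnip was still 334.5 against 82.35 CPM in heterozygote and 308.5 against 54.6 CPM in wild-type cells, and Gas1 203 against 61.8 and 260 against 38.0 CPM. Within cluster 15 the interval of the Txnip ratio included 0 in both libraries, with 337.8 against 402.3 CPM in heterozygote cells (log2 ratio -0.27, -0.68 to 0.21) and 331 against 272.8 CPM in wild-type cells (0.18, -0.77 to 1.60, from 2 Pax6-low cells). The same held for Gas1 in cluster 15, with log2 ratios of 0.27 (-0.35 to 1.03) in heterozygote and 0.98 (-0.35 to 3.48) in wild-type cells.

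The last comparison set Pax6-high cells of the heterozygote against those of the wild-type library, the study's own contrast. Becn1 (chromosome 11, 101285952 to 101302286) had 35.8 CPM in heterozygote and 42.45 CPM in wild-type Pax6-high cells, a log2 ratio of -0.25 (-0.47 to -0.02), and a ratio of 0.05 in Pax6-low cells. Cntd1 overlaps Becn1 on the other strand, with the same limit as for Pax6. Reads come from 3′ ends and their relation to the deletion is unknown, so the level is no check of the genotype. Among 4802 genes tested, whose mean over both libraries reached 20 CPM, 10 (0.208%) were at least 1.5-fold higher and 28 (0.583%) at least 1.5-fold lower in heterozygote cells, around a median of 0.00. Few genes thus differed by this fold, and 4 of the 10 and 9 of the 28 were past it in Pax6-low cells too. The share of all genes past it in Pax6-low cells is not given here. In direction, 8 of the 10 higher and all 28 lower genes differed the same way in Pax6-low cells. None of 17 autophagy genes with that mean was past the fold.

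The 8 highest genes by the naming rule included the keratins Krt17 and Krt16. Krt17, a stress keratin, had 125 CPM in heterozygote and 61.5 CPM in wild-type Pax6-high cells, a log2 ratio of 1.02 (0.87 to 1.17) beside 0.78 in Pax6-low cells. Serpinb1a, an inhibitor of neutrophil proteases, had 80.2 and 44.95 CPM (0.83, Pax6-low 1.01), and the serine protease Prss27 137 and 84.2 CPM (0.70, Pax6-low 0.69). Krt16 (0.51, Pax6-low 0.09), Ifi202b (0.58, Pax6-low 0.27), Pmvk (0.53, Pax6-low 0.51), Uaca (0.52, Pax6-low 0.54) and Gadd45g (0.52, Pax6-low 0.52) stayed under the fold.

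Short ribosomal and mitochondrial transcripts made up most of the lowest genes. Rps28 had 1626 CPM in heterozygote and 2738 CPM in wild-type cells (-0.75, Pax6-low -0.60), Rps29 2924 and 4641 CPM (-0.67, Pax6-low -0.51) and mt-Nd3 83.7 and 155 CPM (-0.89, Pax6-low -0.78). Rps27rt (-0.89) and Gm10076 (-0.88) have near-identical copies that can share reads and are uncertain, and Crip1 had -0.64. Past the fold, and lower, were 5 of 84 ribosomal protein genes and 3 of 12 mitochondrially encoded genes, beside 28 (0.583%) of all 4802 genes. The ribosomal list had a median of -0.04. The mitochondrial list had a median of -0.25, with 1 of the 12 genes above 0. Krt13 stood apart from this group, with 204 and 337 CPM, a ratio of -0.72 (-0.81 to -0.64) beside -0.04 in Pax6-low cells. Its level was highest in cluster 17, where Pax6-high cells had 498 CPM in the heterozygote and 1568 CPM in the wild-type library, from 46 and 39 cells, and the part of that cluster in the ratio was not tested.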

How the data were processed

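The authors deposited raw counts of UMIs, not normalized, for 27998 features in 2 libraries of 5155 and 2513 barcodes. Per the submitters' processing notes they were made with Cell Ranger 2.1.1 on mm10. How barcodes were called, which annotation release was used and whether strand was used is not stated there. Total counts were 74363359 UMIs in the heterozygote and 54913980 in the wild-type library.

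Counts were summed over cells of a kind within each library and scaled to CPM. Log2 ratios add 0.5 to each count. Their intervals are exact conditional (Clopper-Pearson), those of levels exact Poisson and those of shares exact binomial, all at 95% and for counting error only. Pax6, Krt12, Gpha2, Lce3a and Dcn were left out of all counts of genes. The ratio and interval code was tested on simulated counts. Named genes were the 18 of highest and 12 of lowest ratio in both libraries at a mean of 20 CPM, for genotype the 8 highest and 8 lowest at a mean of 50 CPM, and genes of fixed lists; a few genes that the rule names are not reported here. The cells, the lists and the naming rule were chosen with earlier results of these data known. Genes chosen outside the rule were Otx1 and Meis1 (listed but below the mean), Gm42418 and the genes of single clusters.

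Doublets were scored with Scrublet in scanpy 1.11.5 and kept, with their removal (213 heterozygote and 51 wild-type barcodes, 6 and 2 of them Pax6-high) as an alternative. Clusters used 2000 variable genes without the 5 rule genes, mitochondrial or ribosomal protein genes, 30 principal components, 15 neighbours and Leiden (leidenalg 0.10.2) at resolution 1.0, with no integration. Gene positions came from an annotation of the same assembly holding 27645 of the features. Scripts ran on Python 3.11.15 with pandas 2.3.3, scipy 1.17.1, numpy 2.4.6 and matplotlib 3.10.9. Alternatives covered the Pax6 limit, a UMI minimum, the comparison cells, scaling, weighting by depth or cluster, the mean filter, cycling cells, thinning and cluster resolution.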

Additional observations from a re-analysis of the deposited data

Results flagged for a closer look

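In 3 results the sign was opposite in the groups set side by side, and none of these differences was tested, since each group is 1 library. The cytokine feedback list had a median log2 ratio of Pax6-high over Pax6-low cells of 0.024 in the heterozygote and -0.127 in the wild-type library. The autophagy list had 0.021 in the heterozygote and -0.071 in the wild-type library. Becn1 had a log2 ratio of heterozygote over wild type of -0.246 in Pax6-high cells and 0.047 in Pax6-low cells.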

How the results depend on the processing

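Of 70 recomputed counts and shares 36 moved and 34 did not. Genes higher and lower in Pax6-high cells numbered 281 and 172 at a Pax6 limit of 100 CPM, 152 and 928 with TMM, 91 and 51 weighted to clusters, 107 and 67 by that weighting with cluster 15 left out (chosen after seeing the data), and 75 and 122 at a mean of 100 CPM. Higher genes numbered 1390 at a limit of 500 CPM and 2527 at a mean of 5 CPM. Outside the 4 clusters, a split chosen after seeing the data like all splits by these clusters, 190 were higher and 104 lower, and inside them 313 and 123. For heterozygote over wild type the counts were 38 and 57 at a limit of 500 CPM, 61 and 176 at a mean of 5 CPM, 1 and 8 at a mean of 100 CPM, and 24 and 16 after subtracting the ratio in Pax6-low cells, also chosen after seeing the data. Higher genes alone were 29 with per-cell means and 18 with either weighting to or restriction to clusters. Shares of barcodes were 6.69% (thinned), 18.5% (limit 100 CPM), 2.97% (500 CPM) and 6.07% (at least 4 UMIs) in the heterozygote, and 26.9% (100 CPM) and 6.88% (500 CPM) in the wild-type library. The placement was 90.4% at resolution 0.5 and 67.0% at 2.0 in the heterozygote, and 79.7% at 2.0 in the wild-type library. At resolution 0.5 the same clusters held 56.0% and 52.5% of Pax6-low cells, against 9.23% and 10.6% at resolution 1.0.

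Weighted to clusters, B3gnt8 (-0.016), Nppb (0.12), the wild-type S phase median (-0.00572) and the G2 and M medians (-0.33 and -0.36) turned, and with cluster 15 left out all but B3gnt8 did so (heterozygote G2 and M -0.37). Outside the 4 clusters the wild-type medians of EGF receptor genes (0.10), keratins (0.47), alarm genes (0.30) and matrix proteases (0.079) turned, as did S phase (-0.45 and -0.30) and G2 and M (-0.073 and -0.62), from 98 heterozygote and 40 wild-type cells. Inside them AA467197 (0.95), Slpi (0.33) and the heterozygote EGF receptor median (0.11) turned, and Serpinb1a did so after the subtraction (-0.18). The causes were not tested. No paired analysis was possible because each genotype has 1 library. Depth limits Pax6 calls to medians of 7 and 12 UMIs.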
